A study of Glycine max with 5 samples.

Results

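A set of 36 soybean genes gave a clear signal in root tips and a signal no higher than background in non-meristematic tissue of seedlings of the same age, on the 38 probe sets that chose them. All of them carry only a LOC number, the placeholder that RefSeq gives to a gene without an established symbol, and none has a synonym. A probe set is the group of short probes by which an Affymetrix array measures 1 transcript. Members were the single-gene probe sets of such genes with a MAS5 signal of at least 200 on all 3 root meristem arrays and a signal at or below the array's own 25th percentile of all probe sets on both non-meristematic arrays. They were 38 of the 6795 probe sets with a LOC number and no synonym (0.559%), and 36 of 4900 such genes. Over all 37593 probe sets, 166 (0.442%) met the same signal thresholds. Because the thresholds are the contrast between the tissues, the difference between the tissues is given below as a description, with no test.

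The study measured RNA of soybean (Glycine max, genotype Bragg) seedlings aged 10 days. The 3 root meristem samples were root tips of 0.5 mm, dissected under a microscope and labelled as root apical meristem. The 2 non-meristematic samples are labelled as leaf in 1 field, whereas the protocol describes them as what was left of the plant without meristems, so that their makeup is uncertain. All 5 samples came from plants grown at 28 °C in a potting mix without fertilizer, and the titles call them biological replicates without further detail. Whether root tips and non-meristematic tissue came from the same plants, and how many root tips or plants a sample holds, is not given in the sources used here. Free-text descriptions name embryo stages that match none of the other labels, so the groups rest on the titles and tissue fields.

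The root apical meristem is the group of dividing cells at the tip of a root. Its stem cells surround a small, slowly dividing centre, and their daughters divide further before they elongate and differentiate into epidermis, cortex and vascular tissue, while other daughters form the root cap. A tip cut at this length also holds root cap cells. In such bulk samples fewer cells of a type and less RNA per cell cannot be told apart. 

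Of 5 leaf and chloroplast genes taken as markers (CAB3, PETC, RCAALPHA, ATPC and VSPA), 5 were lower in root meristem, against 21.0% of 5650 genes tested (limma, adjusted p below 0.05 and a log2 difference of at least 1). RCAALPHA, a Rubisco activase gene, had signals of 12.8, 7.7 and 7.5 in root meristem, against 5283 and 2928 in non-meristematic tissue. On the root side, 3 symbols were taken as markers of root meristem and dividing cells (PIN2A, PCNA and H4). All 3 were higher in root meristem, against 18.6% of the 5650 genes. H4 was taken by its symbol alone and no product is given for it, so that only PIN2A and PCNA are read as such markers. The VSPA and H4 probe sets share with member LOC100791036 the cluster number of the array's design. Without VSPA and H4 the counts were 4 of 4 lower and 2 of 2 higher. All these symbols were chosen with earlier results of these data known, so that the counts are a description and no independent check of the tissues. A probe set of PR-10, a gene described below, has that number too. PIN2A, an auxin efflux carrier gene, had 1739.5, 2400.5 and 1984 in root meristem, against 26.1 and 25.2 in non-meristematic tissue, where it was below background.

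LOC548079 (PCNA), which encodes the clamp that holds DNA polymerase on its template, had 1752, 1618 and 2304 in root meristem, against 1169 and 686 in non-meristematic tissue (log2 1.06 ± 0.28, SE, limma adjusted p = 0.0228). This gene of dividing cells was thus bright in the tissue labelled as non-meristematic too, and its difference was just over the minimum. Its call was lost under 7 of 11 alternatives, among them leaving out root meristem array 1 (adjusted p = 0.0569), array 2 (0.0514) or array 3 (0.0746), or non-meristematic array 2 (0.0515); over all 11 the adjusted p ran from 0.00248 to 0.0746. The calls of PIN2A and H4 held under all 11.

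The sources used here pair none of the 36 LOC numbers with a product, a protein or a sequence, so no function is given for them. RefSeq (assembly Glycine_max_v4.0, used for names and gene order) lists 35 as protein coding and 1, LOC100500339, as a long non-coding RNA. It lists 1 transcript for 30 of the genes and more for the other 6. Among the 38 probe sets, 11 (28.95%) carry a suffix (_s_at or _x_at) that marks them as able to bind transcripts of related genes, against 17.31% of all probe sets of genes with a LOC number. Their values may be shared with close copies.

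**Figure D1:**
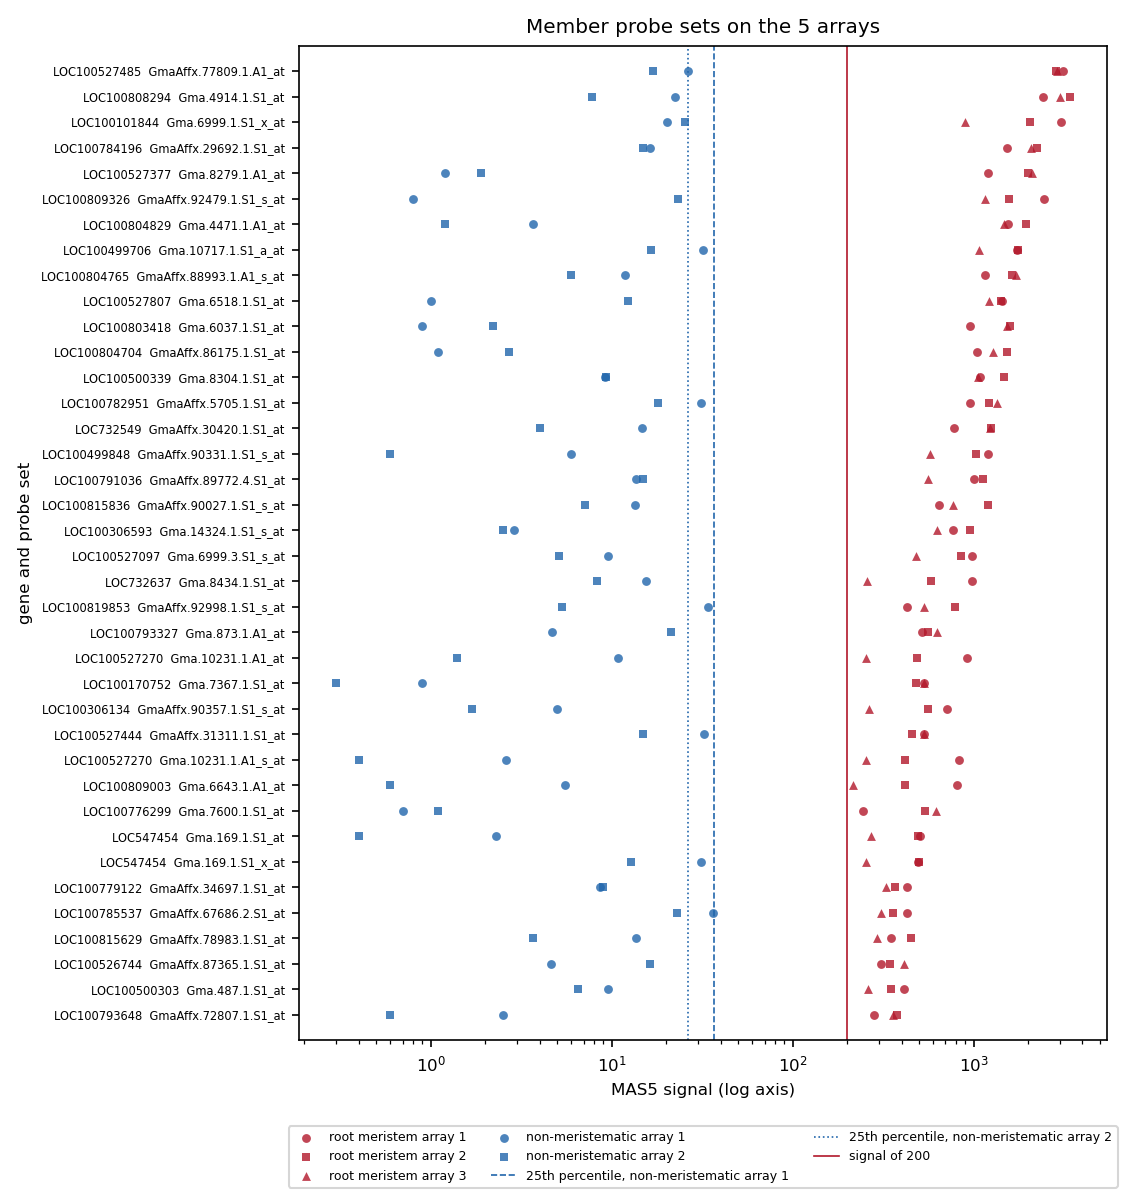
MAS5 signal (log axis) of the 38 member probe sets, 1 row each, on the 3 root meristem arrays (red) and the 2 non-meristematic arrays (blue). All red points lie at or above 200 and all blue points at or below the 25th percentile of their own array, 37 and 26.3, as the selection requires.

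Signals of the members lay between 244 and 3138 on root meristem array 1, between 345 and 3426 on array 2 and between 216 and 2994 on array 3, with medians of 874, 904 and 597. On non-meristematic arrays 1 and 2 they lay between 0.7 and 36.5 and between 0.3 and 25.4, with medians of 9.35 and 6.25. Both groups are thus far apart at every member, by construction. On non-meristematic array 1, 14 of the 38 signals were under 5, and on array 2, 16 were. Signals this low have no order in MAS5, so that a fold change is given only as a lower bound, with the non-meristematic signal set to background. That bound ran from 10.7-fold to 94.9-fold with a median of 24.2-fold. It follows the brightness of the probe set and does not rank the genes. Of the 38 members, 38 passed the limma threshold as higher, against 14.4% of the 30941 probe sets tested. This count follows from the selection.

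The ceiling stood at a different level on each array. The 25th percentile was 22.5, 20.7 and 17.9 on root meristem arrays 1, 2 and 3, against 37 and 26.3 on non-meristematic arrays 1 and 2. With the lowest of these levels, 17.9, as a common ceiling, 27 of the 38 probe sets remained, from 26 genes. On non-meristematic array 1, 9 members lay above 17.9, and on array 2, 5 did. LOC100785537 was the nearest to its ceiling, with 428, 359 and 308 in root meristem, against 36.5 and 23 in non-meristematic tissue. LOC100101844 and LOC100819853 were the next nearest, at 0.966 and 0.916 of the percentile, and LOC100785537 stood at 0.986.

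Just outside the ceiling was LOC100798361, with 1915, 2682 and 3086 in root meristem, against 34.6 and 26.8 in non-meristematic tissue, of which the second non-meristematic value was 1.02 times its percentile. A second probe set of the member gene LOC100809326 followed at 1.04 times, and LOC100527430 at 1.08 times. At the lower limit for root meristem, LOC100809003 (807, 419.5 and 216), LOC100776299 (244, 538 and 617) and one probe set of LOC100527270 (828, 421 and 254) were just inside. Just outside were LOC100811539 (196, 222 and 202), LOC100500648 (304, 395 and 185) and LOC100527002 (180.3, 188 and 202). Of the 3170 probe sets with a LOC number that reached 200 on all root meristem arrays, 38 (1.2%) met the ceiling on both non-meristematic arrays, 11 on array 1 alone, 12 on array 2 alone and 3109 on neither. Among probe sets of genes with another symbol or a synonym, 26 of the 721 that reached 200 met it (3.61%). The opposite pattern, at least 200 on both non-meristematic arrays and at or below the percentile on all root meristem arrays, was found at 178 probe sets with a LOC number; the ceilings of the 2 patterns were not equal.

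**Figure D2:**
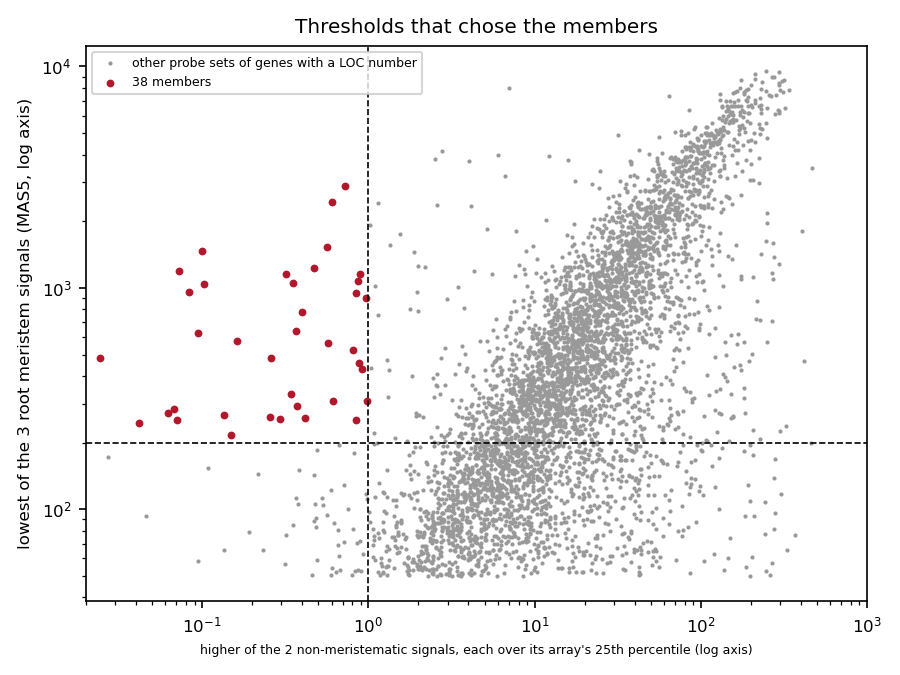
Lowest of the 3 root meristem signals against the higher of the 2 non-meristematic signals, each divided by its array's 25th percentile, for probe sets of genes with a LOC number whose lowest root signal was at least 50 (both axes logarithmic). The 38 members fill the upper left field, at or above 200 and at or below 1, and other probe sets lie just outside its edges.

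What the thresholds did not fix is how the members vary between the root meristem arrays. The ratio of the highest to the lowest root meristem signal ran from 1.09 to 3.79 with a median of 1.59. Over all 10930 probe sets with at least 200 on the 3 root meristem arrays, the median was 1.26, and over the 128 other probe sets that met the same thresholds it was 1.52. It was under 1.5 at 16 members and at least 2 at 11 members (28.9%), against 3.47% of the 10930 probe sets and 21.1% of the 128. The wider the range, the more marked probe sets a class held: 6 of the 11 members with at least 2-fold carry the _s_at or _x_at suffix, 4 of the 11 between 1.5-fold and 2-fold, and 1 of the 16 steady ones. Of the 27 members without such a suffix, 5 (18.5%) had a range of at least 2-fold, against 2.7% of all unmarked probe sets with at least 200 in root meristem and 6.57% of the marked ones. The part of related transcripts in these ranges was not tested. The members are described here in the order of this ratio, since no roles are annotated.

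The 16 steady members were the most even in root meristem. LOC100527485 (GmaAffx.77809.1.A1_at) had signals of 3138, 2873 and 2880.1 in root meristem, against 26.6 and 16.9 in non-meristematic tissue, at least 94.9-fold higher, and the root meristem values differed by no more than 1.09-fold. LOC100808294 (Gma.4914.1.S1_at) had 2433, 3426 and 2994 in root meristem, against 22.4 and 7.8 in non-meristematic tissue, at least 93.7-fold higher. Both genes stayed below background in non-meristematic tissue on these probe sets, though within reach of it on array 1.

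LOC100784196 had 1524, 2248 and 2085 in root meristem, against 16.3 and 14.9 in non-meristematic tissue. LOC100804829 had 1549.8, 1939.8 and 1472 in root meristem, against 3.7 and 1.2 in non-meristematic tissue, so that its non-meristematic values were close to the bottom of the scale. The same held for LOC100804704, with 1046, 1526 and 1289 in root meristem, against 1.1 and 2.7 in non-meristematic tissue. These 3 genes were at least 61.7-fold, 52.6-fold and 40.8-fold higher.

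LOC100804765 had 1150.3, 1631 and 1725 in root meristem, against 11.9 and 6 in non-meristematic tissue, on a probe set marked as able to bind related transcripts. LOC100527807 had 1432, 1421 and 1225 in root meristem, against 1 and 12.3 in non-meristematic tissue, with both non-meristematic values below background. LOC100500339, the long non-coding RNA, had 1085, 1469.9 and 1054 in root meristem, against 9.2 and 9.3 in non-meristematic tissue, and the non-meristematic arrays were nearly equal. LOC100782951 reached 951, 1223 and 1346 in root meristem, against 31.1 and 18.1 in non-meristematic tissue, and its value on non-meristematic array 1 lay above the background of every root meristem array.

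LOC100170752, LOC100527444 and LOC100793327 were also steady. LOC100170752 was among the most even, with 534, 481 and 532 in root meristem, against 0.9 and 0.3 in non-meristematic tissue. LOC100527444 had 535, 456 and 535 in root meristem, against 32.4 and 15 in non-meristematic tissue, and LOC100793327 had 521, 558 and 630.4 in root meristem, against 4.7 and 21.2 in non-meristematic tissue. All 3 varied by at most 1.21-fold in root meristem, and LOC100170752 was close to 0 on both non-meristematic arrays.

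The remaining 4 steady genes, LOC100779122, LOC100526744, LOC100793648 and LOC100785537, had root meristem signals between 282 and 429. Of these, LOC100793648 was close to 0 in non-meristematic tissue, with 2.5 and 0.6, while LOC100785537 was near its ceiling.

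At 11 probe sets of 10 genes the root meristem arrays differed by 1.5-fold to 2-fold. LOC100527377 had 1197, 1998 and 2111 in root meristem, against 1.2 and 1.9 in non-meristematic tissue, and LOC100803418 had 959, 1589 and 1525 in root meristem, against 0.9 and 2.2 in non-meristematic tissue; both were lowest on root meristem array 1 and close to 0 in non-meristematic tissue. LOC732549 was also lowest on root meristem array 1, with 782, 1247 and 1227 in root meristem, against 14.8 and 4 in non-meristematic tissue. LOC100499706 was lowest on root meristem array 3 instead, with 1728, 1767 and 1077 in root meristem, against 31.9 and 16.5 in non-meristematic tissue.

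LOC100815836 had 641, 1206 and 770.3 in root meristem, against 13.5 and 7.1 in non-meristematic tissue, and LOC100819853 had 432, 795 and 533 in root meristem, against 33.9 and 5.3 in non-meristematic tissue. Both were highest on root meristem array 2, and the value of LOC100819853 on non-meristematic array 1 was near the ceiling. LOC100306593 had 767, 958 and 626 in root meristem, against 2.9 and 2.5 in non-meristematic tissue, with both non-meristematic values under 5. All 3 were read on marked probe sets. LOC100815629 and LOC100500303 had root meristem means of 364 ± 79.1 and 339.9 ± 75.4 (SD, n = 3).

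LOC547454 was chosen by a pair of probe sets of the same design. The unmarked one (Gma.169.1.S1_at) had 509, 493 and 271 in root meristem, against 2.3 and 0.4 in non-meristematic tissue, and the marked one (Gma.169.1.S1_x_at) had 493, 503 and 254 in root meristem, against 31.2 and 12.8 in non-meristematic tissue. Both were lowest on root meristem array 3, and only the marked one came near its ceiling, on non-meristematic array 1.

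**Figure D3:**
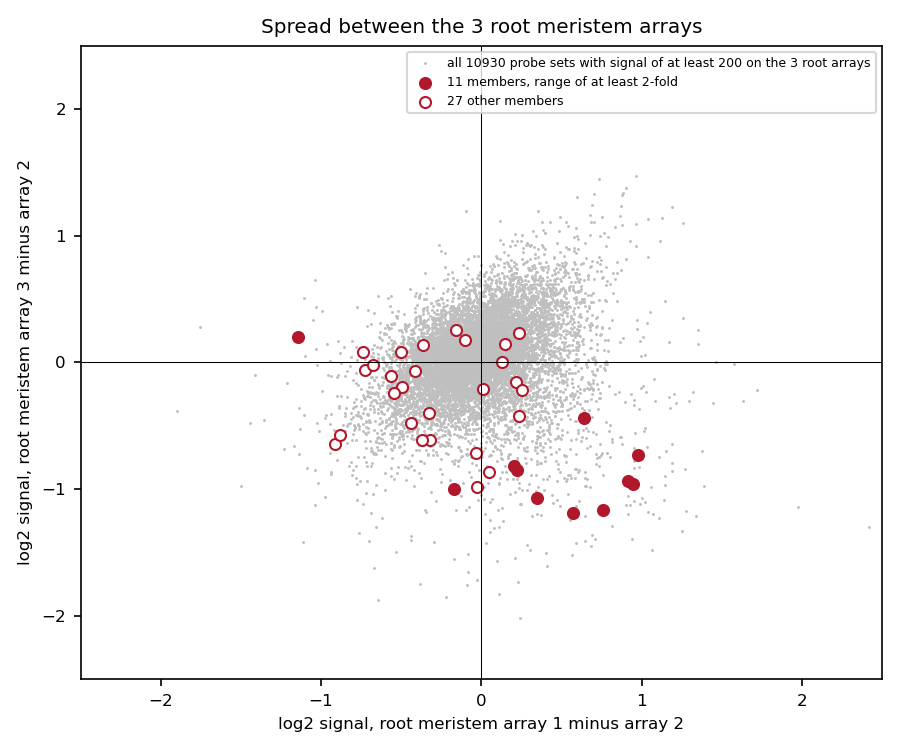
Log2 signal of root meristem array 3 minus array 2 against array 1 minus array 2, for the 38 members (red) over the 10930 probe sets with at least 200 on all root meristem arrays (grey). Filled points are the 11 members with a range of at least 2-fold, of which 9 lie at the lower right, high on array 1 and low on array 3.

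The 11 most variable members belong to 10 genes, and 9 of the 11 were highest on root meristem array 1 and lowest on array 3 (81.8%). Of all 379 probe sets with at least 200 in root meristem and a range of at least 2-fold, 250 had that order (66%), and of the 27 such probe sets among the others that met the thresholds, 19 did. The 22 genes whose symbols name them as seed maturation proteins had a median signal of 413, 217 and 122 on root meristem arrays 1, 2 and 3, against 28.6 and 14.8 on the non-meristematic arrays; their part in the order of the members was not tested. The labels give no difference between these root meristem samples. The 6 marked probe sets among the 11 are those of LOC100101844, LOC100809326, LOC100306134, LOC100499848 and LOC100527097 and one of the pair of LOC100527270.

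LOC732637 had the widest range, 3.79-fold, with 979.9, 578 and 258 in root meristem, against 15.4 and 8.3 in non-meristematic tissue. LOC100809003 followed with 807, 419.5 and 216 in root meristem, against 5.5 and 0.6 in non-meristematic tissue. LOC100527270 was chosen by a pair of probe sets, of which the unmarked one had 921, 489 and 255 in root meristem, against 10.9 and 1.4 in non-meristematic tissue. The marked one had 828, 421 and 254 in root meristem, against 2.6 and 0.4 in non-meristematic tissue. In all 3 genes the signal on root meristem array 1 was more than 3 times that on array 3, yet both were far above the non-meristematic values.

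LOC100101844 (Gma.6999.1.S1_x_at) had 3037, 2043 and 896 in root meristem, against 20.2 and 25.4 in non-meristematic tissue, at least 56.8-fold higher. LOC100809326 had 2448, 1568 and 1156 in root meristem, against 0.8 and 23.3 in non-meristematic tissue, and its 2 non-meristematic values lay far apart, both below background. LOC100306134 had 712, 559 and 266 in root meristem, against 5 and 1.7 in non-meristematic tissue, and LOC100499848 had 1209, 1035 and 576 in root meristem, against 6 and 0.6 in non-meristematic tissue. Each of these 4 was highest on root meristem array 1.

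The adjacent genes LOC100791036 and LOC100527097 had root meristem means of 897 ± 296 and 771 ± 258 (SD, n = 3), both lowest on array 3. LOC100776299 ran the other way, with 244, 538 and 617 in root meristem, against 0.7 and 1.1 in non-meristematic tissue. It was the only one of the 11 that was lowest on root meristem array 1.

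Further probe sets listed with the same genes were read in the same RNA samples. Whether they bind the same transcript as the member probe set was not tested. Of the 36 genes, 11 had at least 1 probe set that was not a member, 16 in all, and 25 had none. Of the 16, 12 had all root meristem signals above both non-meristematic ones, against 34.0% of all probe sets tested. That share covers only probe sets above background on at least 2 arrays, which some of the 16 were not. GmaAffx.89772.4.A1_x_at counts among the 12, with 17.1, 16.4 and 11.9 in root meristem against 0.6 and 1.3, all below background. The 16 read the same contrast in the same samples, so that this count is a description and no independent support. On 4 of them all root meristem signals reached 200, and on 10 all root meristem signals were above background.

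For 5 of these 11 genes a further probe set gave signal above background in non-meristematic tissue, which goes against the description of the genes as on only in root meristem. On Gma.3333.2.A1_at, LOC100527485 read 5211, 4756 and 4157 on root meristem arrays 1 to 3 and 102 and 57.5 on non-meristematic arrays 1 and 2, so that both non-meristematic arrays were above background. On Gma.3260.1.S1_at, LOC100819853 read 2339.5, 3336 and 3063 on root meristem arrays 1 to 3 and 152 and 23.9 on non-meristematic arrays 1 and 2, well above background on non-meristematic array 1 and below it on array 2.

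On GmaAffx.92828.1.S1_at, LOC100815836 read 2424, 3129 and 2964 on root meristem arrays 1 to 3 and 36.6 and 30.1 on non-meristematic arrays 1 and 2, above background on non-meristematic array 2 alone. LOC100809326 read 1243, 795 and 436 on root meristem arrays 1 to 3 and 38.4 and 18 on non-meristematic arrays 1 and 2, and LOC100527270 read 294, 174 and 73.8 on root meristem arrays 1 to 3 and 42.8 and 1.4 on non-meristematic arrays 1 and 2, each above background on non-meristematic array 1 alone and each on a marked probe set. In all 5 genes the root meristem signals remained the higher ones.

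The other 6 genes had no further probe set above background in non-meristematic tissue. LOC100306593 read 173, 345 and 194 on root meristem arrays 1 to 3 and 1 and 0.6 on non-meristematic arrays 1 and 2, LOC100170752 read 146, 143 and 168 on root meristem arrays 1 to 3 and 12.9 and 12.3 on non-meristematic arrays 1 and 2 and LOC732549 read 22.7, 36.6 and 25 on root meristem arrays 1 to 3 and 4.5 and 0.4 on non-meristematic arrays 1 and 2; on each of these the groups did not overlap. LOC100306134 was at odds with its member probe set, with 41.8, 23.8 and 3.8 in root meristem, against 15.6 and 14.3 in non-meristematic tissue, so that the groups overlapped. Of 3 further probe sets of LOC100804829, 1 (Gma.4471.1.S1_at) read 97.2, 102 and 87.1 in root meristem, against 15.7 and 16.4 in non-meristematic tissue. The other 2 were at or below background except on 1 root meristem array. On GmaAffx.89697.1.A1_at root meristem was the lower, with 5.4, 15.1 and 4.6, against 21.7 and 23.3, all below background. Of 3 further probe sets of LOC100791036, 1 was above background on all root meristem arrays, with 53.1, 36.6 and 26.7, and is marked.

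**Figure D4:**
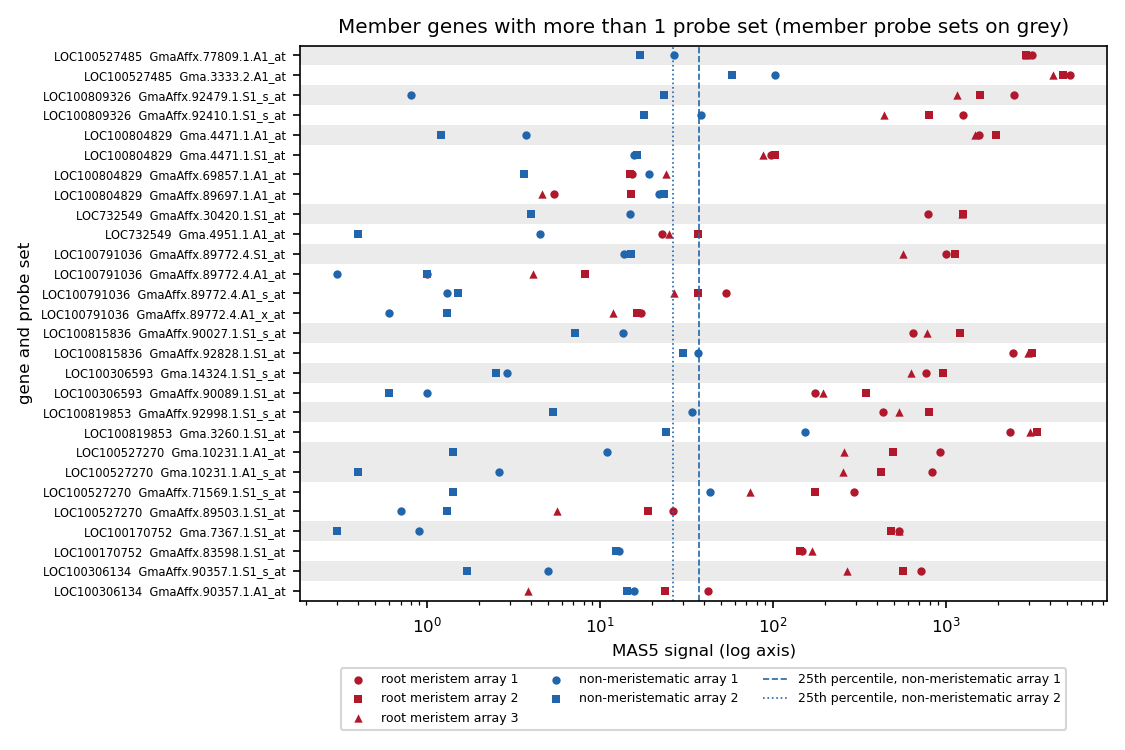
MAS5 signal (log axis) on the 3 root meristem arrays (red) and the 2 non-meristematic arrays (blue) for the 11 member genes with further probe sets. Rows on grey are member probe sets, and on white rows 5 genes have a blue point to the right of that array's 25th percentile (37 and 26.3).

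Some probe sets share with a member the cluster number in their name, which groups the sequences from which the array was designed. Gma.4914.2.S1_at, which is not listed with a gene, shares its number with LOC100808294 and had 1054, 1898 and 1442 in root meristem, against 11.6 and 1.8 in non-meristematic tissue. LOC100101844 and LOC100527097 share the number Gma.6999 although RefSeq places them on different chromosomes, and 2 further probe sets of that number match several genes each. These read 2922, 1786 and 678 on root meristem arrays 1 to 3 and 10 and 10.2 on non-meristematic arrays 1 and 2, and 2755, 1710.0 and 666 on root meristem arrays 1 to 3 and 17.7 and 2.4 on non-meristematic arrays 1 and 2. All 4 probe sets of this number were thus below background in non-meristematic tissue and lowest on root meristem array 3.

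Beside LOC100784196, an unlisted probe set of its number had 173, 234 and 224 in root meristem, against 9.4 and 1.3 in non-meristematic tissue, and beside LOC100804704 another had 429.5, 729.7 and 516 in root meristem, against 22.2 and 16.8 in non-meristematic tissue. Both were below background in non-meristematic tissue. In contrast, the unlisted probe set beside LOC100499706 had 1451, 1737 and 966 in root meristem, against 95.6 and 40.8 in non-meristematic tissue, above background on all 5 arrays, and the one beside LOC100809003 had 266, 158 and 90.8 in root meristem, against 41.9 and 9.5 in non-meristematic tissue, above it on non-meristematic array 1.

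LOC100527444 shares a number with LOC100500205, which had 464, 429 and 594 in root meristem, against 393 and 238 in non-meristematic tissue, above background in both tissues. The number of the LOC100791036 probe set is shared by more than 20 others, among them VSPA probe sets that were bright in non-meristematic tissue (such as 42.6, 73.8 and 71.2 in root meristem, against 9094 and 12202 in non-meristematic tissue). A PR-10 probe set of that number had 429, 129 and 53.8 in root meristem, against 2.2 and 2.1 in non-meristematic tissue. One that matches several genes had 831.5, 592 and 269.5, against 1 and 1.4. These and the H4 probe sets of that number were lowest on root meristem array 3, as the member was. Probe sets of that number thus differed in direction. Whether those high in root meristem bind each other's transcripts was not tested.

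Genes that lie beside the members on the chromosome were described with the same fit. The 3 genes on either side of each member in RefSeq order gave 203 genes that were not members, of which 17 had a tested probe set. Of the 17, 6 were higher in root meristem (35.3%), 2 were lower and 9 did not pass, against 18.6% higher and 21.0% lower among all 5650 genes (limma, adjusted p below 0.05 and a log2 difference of at least 1). This count depends on the selection: 13 of the 17 have a LOC number and no synonym and were themselves candidates, 3 of them among the 6 higher ones, and neighbours that met the rule are members and so are not among the 17. Of the 6 higher neighbours, 3 (H4, LOC100527731 and LOC100306363) were read on marked probe sets, which can bind related transcripts, as was LOC100793096 among the 2 lower ones and 0 of the 9 others. With 17 genes, of which several lie in the same stretch, this is a description of these places, and nothing is read from the share.

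In 2 places a pair of members were direct neighbours. LOC100809326 and LOC100804704 were one such pair; the 2 genes before them, LOC100796558 and LOC100799213, did not pass (log2 -0.15 ± 0.33 and 0.54 ± 0.22, SE, limma adjusted p = 0.745 and 0.0917). LOC100791036 and LOC100527097 were the other. Beside this pair lay H4, with 2710.5, 2331 and 1272 in root meristem, against 179.7 and 342 in non-meristematic tissue (log2 3.01 ± 0.40, adjusted p = 0.00196), and then LOC100306363, with 362, 837 and 746 in root meristem, against 276 and 213 in non-meristematic tissue (log2 1.33 ± 0.39, adjusted p = 0.034). The call of LOC100306363 was lost under 5 of 11 alternatives, among them leaving out root meristem array 2 (adjusted p = 0.111), root meristem array 3 (0.103) or non-meristematic array 2 (0.0788). The symbol H4 is also that of a core histone, but no product is given here and it is not read as one. Its probe set shares a design number with a PR-10 probe set and with LOC100791036.

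The gene next to LOC100101844 was PR-10 (synonym SAM22), a pathogenesis-related protein gene of a family known from stress and defence responses of plants. On its brightest probe set PR-10 had 1163, 1175 and 652 in root meristem, against 13.2 and 4.3 in non-meristematic tissue (limma adjusted p = 0.000207). Both non-meristematic values were below background, so that root meristem was at least 30.9-fold higher. PR-10 was lowest on root meristem array 3, as LOC100101844 was. A second, marked PR-10 probe set had 429, 129 and 53.8 in root meristem, against 2.2 and 2.1 in non-meristematic tissue, at least 4.61-fold higher. The gene 3 places from LOC100101844, LOC100527731, had 3882, 2951 and 1758 in root meristem, against 22 and 41 in non-meristematic tissue (log2 6.50 ± 0.41, adjusted p = 0.000119), while LOC100527502 between them did not pass (log2 -0.77 ± 0.37, adjusted p = 0.148). The calls of PR-10, LOC100527731 and H4, and of LOC547541 and XTH1 described next, held under all 11 alternatives.

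Among the single neighbours, LOC547541, 3 places from LOC100499848, had 7996, 8816 and 8179 in root meristem, against 259 and 51.1 in non-meristematic tissue (log2 6.18 ± 0.60, adjusted p = 0.000573). XTH1, a gene of the xyloglucan endotransglucosylase/hydrolases that remodel the cell wall, lies next to LOC100779122 and had 4781, 5225 and 5449 in root meristem, against 2028 and 1088 in non-meristematic tissue (log2 1.79 ± 0.26, adjusted p = 0.00267). The 2 lower neighbours were LOC100793096, next to LOC100499706, and LOC100527288, near LOC100306134. LOC100793096 had 119, 155 and 139.5 in root meristem, against 249 and 436 in non-meristematic tissue (log2 -1.27 ± 0.31, adjusted p = 0.0175), and LOC100527288 had 86.4, 91.2 and 29 in root meristem, against 186 and 925 in non-meristematic tissue (log2 -2.76 ± 0.78, adjusted p = 0.0294). The calls of these 2 were not stable: without root meristem array 1 the adjusted p was 0.0605 for LOC100793096 and 0.0541 for LOC100527288, without root meristem array 3 it was 0.0518 and 0.0721, and without root meristem array 2 it was 0.0568 for LOC100527288. Without non-meristematic array 2, LOC100527288 had an adjusted p of 0.0768 and LOC100793096 a log2 difference of -0.86, under the minimum.

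**Figure D5:**
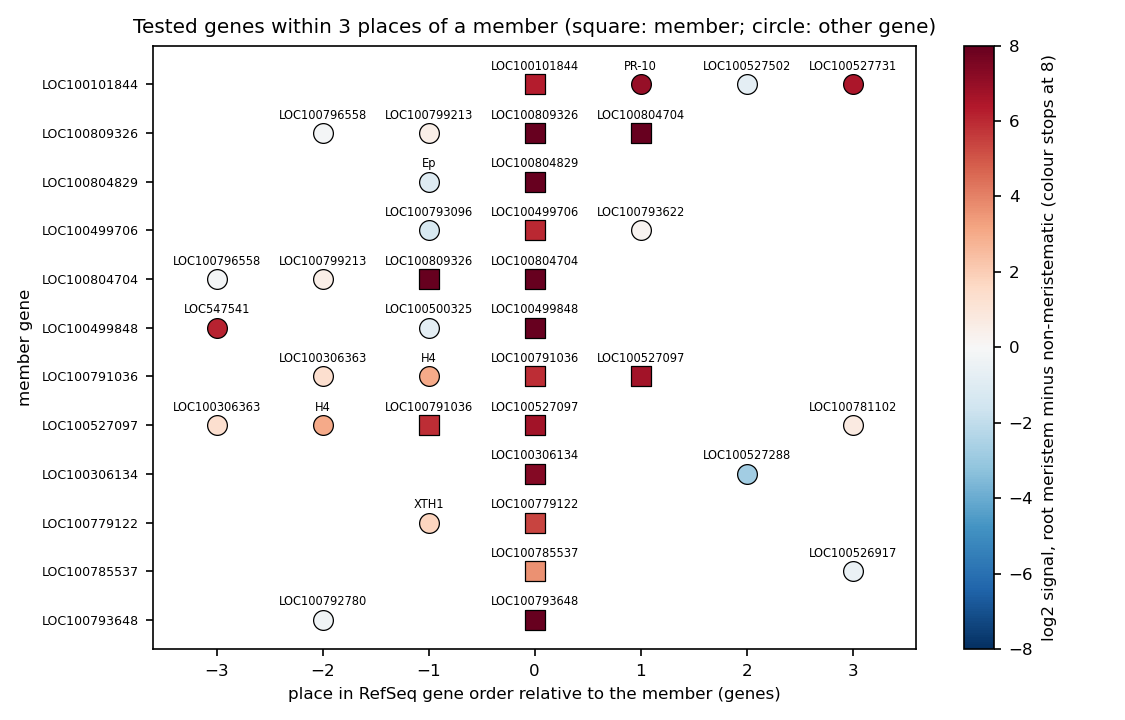
Log2 difference in signal, root meristem minus non-meristematic (colour, which stops at 8), of members (squares) and of tested genes within 3 places (circles) in RefSeq gene order. Stretches with a pair of adjacent members appear in 2 rows; red circles stand beside LOC100101844, LOC100499848 and the pair LOC100791036 and LOC100527097, and most other circles are pale.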

How the data were processed

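RNA of 5 soybean samples was measured on an Affymetrix soybean array. The values deposited by the authors were MAS5 signal intensities, 1 linear value for each probe set, per the submitters' processing notes. Neither the version of MAS5 nor its scaling target is given in the sources used here. Trimmed means of the arrays lay between 267.7 and 276.8. Background was each array's 25th percentile. Arrays carry no count of molecules, and their number limits the precision.

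Tests used log2 signal, floored at 0.1, without scaling between arrays. limma 3.58.1 in R 4.3.3 (lmFit, eBayes with trend) was fitted to the 30941 probe sets above background on at least 2 of 5 arrays. Benjamini-Hochberg adjustment was made over all of them. The fit was also run on simulated data with independent noise, which cannot show how it behaves where many probe sets shift together between arrays. A gene was represented by its brightest tested probe set. The spread behind a p-value is that between these samples and may be technical. "At least" folds set each non-meristematic array to background.

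Gene names came from the platform annotation and from RefSeq, whose coordinates gave gene order alone, since the files name no build. Members, markers and lists were chosen with earlier results of these data known. The naming rule and product classes asked for annotated products; none were given, so its fallback, the 25 brightest probe sets, was used, with the widest, narrowest and threshold cases; other members and the neighbours were named after their values were seen. Alternatives are given in the closing section.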

Additional observations from a re-analysis of the deposited data

How the results depend on the processing

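The number of members moved with the thresholds. It was 38 as reported, 24 with a root meristem minimum of 400, 56 with a minimum of 100, 29 and 46 with the 20th and 30th percentile as ceiling, 39 after quantile normalization or median scaling (all 38 members among them) and 26 without marked probe sets, with percentiles taken again over the rest. Leaving out 1 array in turn gave 38 to 50, since fewer arrays had to meet the rule. The median log2 difference of the members depends on the floor, 7.06 with 0.1 and 5.56 with 16. Neither value is a measured fold, since all non-meristematic signals of members are at or below background, and the direction is fixed by the selection. Of 30941 probe sets tested, 4452 were higher and 5608 lower in root meristem, 10060 in all. The split was 5686 and 4712 after quantile normalization and 7668 and 4689 after median centring. Over the probe sets tested the median log2 difference was 0.07, 0.30 and 0.43 under these 3 scalings. Without the filter, over all 37593 probe sets, it was -0.029 with no scaling. Leaving out 1 array in turn gave 8032 to 10101 calls, and 5 or 6 higher neighbours of members. Samples share only a replicate number across tissues: deviations from the group means correlated at 0.099 for number 1 and -0.089 for number 2. Root meristem array 3 had -0.168 with non-meristematic array 1 and 0.168 with array 2. With 2 non-meristematic arrays the deviations mirror each other, so that these values cannot decide whether samples were paired. With the replicate number as a block the calls were 7589 and the higher neighbours 5. That block leaves root meristem array 3 without a partner, so that the log2 differences equal those without this array (median of members 7.12 in both). Alternatives for neighbours and tissue markers were chosen after seeing the data.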

Other observations

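The signal thresholds that chose the members were also met by 97 of the 28546 probe sets that are not listed with a gene (0.34%), 26 of the 1882 probe sets of genes with another symbol or a synonym (1.38%) and 5 of the 370 that match several genes (1.35%). Most probe sets with this pattern, 97 of 166, are therefore unnamed here, as are 28546 of all 37593 probe sets. The share with the pattern was 0.34% among the unlisted ones, against 0.442% of all. Of the probe sets that reached 200 on all root meristem arrays, the share that met the ceiling was 1.42% among those not listed, 1.2% among those with a LOC number and no synonym, and 3.61% among those with another symbol or a synonym. These shares are descriptions of the array and were not tested.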
